A study of Mus musculus with 2 samples.

Results

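Clu-high epithelium of a gastrointestinal polyp from Lkb1 heterozygous mice is described here: 774 of the 4399 Epcam-positive, Ptprc-negative cell barcodes of the polyp library, out of 24277 deposited barcodes in the series. A barcode was counted when it held at least 500 UMIs (unique molecular identifiers, each standing for 1 captured RNA molecule), at least 250 genes and at most 25% mitochondrial UMIs. It also needed at least 1 UMI of the epithelial adhesion gene Epcam, no UMI of the leukocyte gene Ptprc, and at least 1% of its UMIs from Clu. Barcodes with at least 0.5% Muc6, at least 5% Tff1, at least 3 UMIs of Chga plus Chgb, or at least 2 UMIs of Mki67 plus Top2a were left out. This removes barcodes that pass set levels of gland, surface mucous, endocrine and cycling genes, and need not remove every such cell. The other 3625 epithelial barcodes of the polyp form the remaining epithelium, and 2011 of them, called Clu-low here, met every condition except the one on Clu.

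The series profiled single cells of gastrointestinal polyps of mice in which 1 allele of the tumour suppressor kinase Lkb1 (gene Stk11) is floxed. Polyp tissue came from animals of genotype Lkb1flox/+;Myh11-Cre/ERT2, labelled heterozygous. The control was normal duodenum of the genotype Lkb1+/+;Myh11-Cre/ERT2 (WT). Tissue of 3 mice went into the single library of each genotype, and both genotypes carry the Cre, which the Myh11 promoter drives in smooth muscle, so the epithelium itself is not its intended target. Ages, the tamoxifen schedule and the exact site of the polyps are not given in the labels, whose tissue entry is duodenum for both libraries. With 1 library per genotype, pooled mice that cannot be separated, and cells picked on Clu itself, no test was possible: all values below are sums over barcodes, and their 95% intervals cover counting error only.

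Clusterin, the product of Clu, is a secreted chaperone that also carries lipids. In the mouse intestine, Clu marks rare cells that expand after injury and are known for YAP activity and for helping to rebuild the stem cell pool. In the mouse stomach it is also high in metaplastic gland cells that carry Tff2, Gkn3 and Cd44. These are background facts from other studies and not results of these libraries.

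The genes that stood highest above the remaining epithelium, beside Clu, included 3 neighbours on chromosome 6 that encode secreted C-type lectins: Reg1, a growth-associated lectin of pancreas and gut, and Reg3b and Reg3g, which act against bacteria at the mucosal surface. Of 13 genes looked up (Clu and the 12 ranked first by the lower end of the interval of their ratio), 9 had an entry among the RefSeq promoter sequences of GRCm38.p6, the same genome as mm10. The 3 Reg promoters are shown because these genes were among the most abundant of the 12 and varied together between barcodes. They are chr6:78425733-78426032 on the plus strand (Reg1), chr6:78370635-78370934 on the plus strand (Reg3b) and chr6:78468825-78469124 on the minus strand (Reg3g), each 300 bases 5′ to 3′. Capitals mark every match to the STAT motif TTCNNNGAA and to the TATA motif TATAAA on either strand.
Reg1: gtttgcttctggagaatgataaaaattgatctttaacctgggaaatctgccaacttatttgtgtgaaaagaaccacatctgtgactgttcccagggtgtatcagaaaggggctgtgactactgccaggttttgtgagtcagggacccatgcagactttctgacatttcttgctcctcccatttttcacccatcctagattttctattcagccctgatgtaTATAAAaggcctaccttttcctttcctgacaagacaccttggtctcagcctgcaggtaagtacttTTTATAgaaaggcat
Reg3b: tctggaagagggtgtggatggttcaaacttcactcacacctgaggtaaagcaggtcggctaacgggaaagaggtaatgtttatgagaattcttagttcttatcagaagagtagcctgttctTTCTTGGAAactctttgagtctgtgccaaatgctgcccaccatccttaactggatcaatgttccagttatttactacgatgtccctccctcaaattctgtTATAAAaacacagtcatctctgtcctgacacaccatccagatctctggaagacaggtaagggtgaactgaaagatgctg
Reg3g: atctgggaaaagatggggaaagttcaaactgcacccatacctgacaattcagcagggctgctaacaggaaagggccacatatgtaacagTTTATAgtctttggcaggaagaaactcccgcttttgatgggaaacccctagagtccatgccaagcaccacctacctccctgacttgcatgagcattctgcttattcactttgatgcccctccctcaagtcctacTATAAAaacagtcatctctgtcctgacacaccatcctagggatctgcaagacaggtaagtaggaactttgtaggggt
The STAT motif was found once, in Reg3b at position -129 from the annotated start, and 8.30% of the 32851 promoters hold it. All 3 promoters held a TATA match, which 13.6% of promoters do. Reg3b and Reg3g share an unbroken run of 29 bases, acagtcatctctgtcctgacacaccatcc, that begins at position -20 in both. The longest run shared by Reg1 with Reg3b is 8 bases, and with Reg3g 10 bases. A match describes letters and is not evidence of binding, and reads of such related genes may be shared between copies.

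Clu itself (ENSMUSG00000022037, chr14:65968483-65981547, plus strand, mm10) chose the cells, so its level is a description. It made up 1.0% to 5.48% of the UMIs of a Clu-high barcode, with a median of 1.41%, against a median of 0.343% in the remaining epithelium and 0.394% in Clu-low barcodes. Summed, Clu reached 15541 CPM (UMIs of the gene per 1000000 UMIs of the set) in Clu-high epithelium and 4277 CPM in the remaining epithelium. The other polyp sets held 6244 CPM in gland barcodes, 4149 CPM in cycling, 3542 CPM in endocrine and 3105 CPM in surface mucous barcodes. In WT epithelium it was 163 CPM. The 20 WT barcodes that met the gland condition held 3048 CPM, close to the level of polyp surface mucous barcodes.

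**Figure D1:**
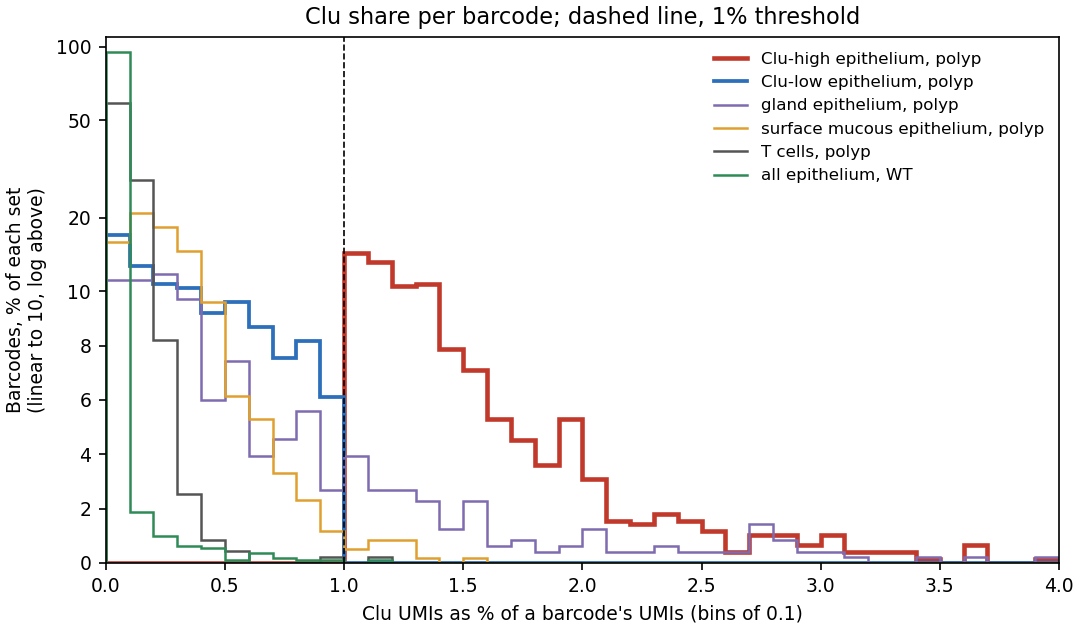
Distribution of the Clu share per barcode (x axis, % of UMIs in bins of 0.1, shown to 4%) as % of the barcodes of each set (y axis, linear to 10 and log above). Clu-high and Clu-low polyp epithelium meet at the 1% threshold without a gap, T cells of the polyp lie mostly under 0.3%, and WT epithelium sits near 0.

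The threshold cut a continuous range and did not mark off a separate cell type. Among barcodes that met all other conditions, 213 had 1.0% to 1.2% Clu and 287 had 0.8% to 1.0% Clu. Just inside the threshold Reg1 stood at 9104 CPM, against 7260.0 CPM just outside. Spp1 had 2276 CPM inside and 1835 CPM outside, while Anxa1 had 308 CPM inside and 328 CPM outside. Of 950 epithelial barcodes with at least 1% Clu, 128 were left out for Muc6, 23 for Mki67 plus Top2a, 17 for Tff1 and 14 for Chga plus Chgb, some on more than 1 count. In the polyp the rule took 17.6% of epithelial barcodes (exact 95% interval 16.5% to 18.8%). In WT, 1 of 1126 epithelial barcodes met it (0.0888%, interval 0.00225% to 0.494%). That WT barcode held 218 Clu UMIs of 19157, or 1.14%. The median mitochondrial share over deposited barcodes was 10.3% in the polyp library and 44.7% in the WT library, which stood apart in quality. Without the mitochondrial limit, 1 of 3805 WT epithelial barcodes met the rule. The libraries also differed in cell types. WT held 20 gland and 8 surface mucous barcodes, against 484 and 604 in the polyp. Enterocyte markers (Fabp1, Apoa4, Sis, Alpi) summed to 9941 CPM in WT epithelium, 28.5 CPM in the remaining polyp epithelium and 1.60 CPM in Clu-high epithelium. The part of this in the 2 shares was not tested.

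Free RNA was gauged from T-cell barcodes. T-cell barcodes of the polyp, which should not make Clu, held 917 CPM, and T-cell barcodes of WT held 16.0 CPM. Median depth was 9616.5 UMIs in Clu-high epithelium, 5719 in the remaining epithelium, 2708 in Clu-low barcodes and 2124.5 in these polyp T cells. The median number of genes was 2600 in Clu-high and 1705 in remaining epithelium, and the median mitochondrial share was 5.90% in Clu-high and 5.10% in remaining epithelium. The libraries shared 44 deposited barcodes, and 3 of the 774 had a barcode also listed in WT. A doublet caller marked 0 barcodes of the polyp at its automatic threshold, so it did not work here, and no doublets were removed. The 573 highest doublet scores held 40 Clu-high barcodes (5.17%) and 201 of the remaining epithelium (5.54%).

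The markers given with the working name regenerative epithelium were unequal. Spp1, which encodes the secreted matrix protein osteopontin, was 2266 CPM (2232 to 2300) in Clu-high epithelium and 659 CPM (651 to 668) in the remaining epithelium, a ratio of 3.44 (3.37 to 3.5). Against Clu-low barcodes, at 1131 CPM, the ratio was 2.0 (1.96 to 2.05). Anxa1, a calcium-dependent membrane-binding protein, was 330.2 CPM in Clu-high against 231 CPM in remaining epithelium, a ratio of 1.43 (1.36 to 1.49), and 263 CPM in Clu-low barcodes. Epcam, a gene of the rule, was 1067 CPM in Clu-high against 771 CPM in remaining epithelium. Both Spp1 and Anxa1 were low in WT epithelium, at 25.4 and 10.5 CPM. Per barcode, Spp1 had a UMI in 79.1% of Clu-high barcodes and 51.5% of the remaining epithelium. Thinned to 1000 UMIs each, these shares were 56.0% of 722 and 25.3% of 3076 barcodes, and 15.9% of 464 T-cell barcodes.

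Other cell types were checked by their markers. The T-cell markers Cd3d, Cd3e, Cd3g and Trac summed to 4.12 CPM in Clu-high epithelium, against 1880 CPM in T cells, and 4 macrophage markers to 4.92 CPM. The enterocyte genes Fabp1 and Sis and the goblet gene Muc2 had no UMI in any Clu-high barcode, and the 4 enterocyte markers summed to 1.60 CPM. The gland markers Muc6, Tff2, Aqp5 and Gkn3 summed to 90617 CPM in Clu-high epithelium and 87482 CPM in the remaining epithelium, with T cells at 23335 CPM. Gastric surface mucous markers (Tff1, Gkn1, Gkn2, Muc5ac) summed to 13140.1 CPM in Clu-high epithelium, 76787 CPM in the remaining epithelium and 10520.5 CPM in T cells. Muc6 and Tff1, which are part of these sums, were limited by the rule.

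Across all genes, 11998 had at least 50 UMIs over Clu-high and remaining epithelium together. Of these, 330 were at least 2-fold higher in Clu-high epithelium (2.75%) and 1002 were at most 0.5-fold (8.35%). Against Clu-low barcodes, 106 of 10700 genes were at least 2-fold higher (0.991%) and 480 at most 0.5-fold (4.49%). The median gene had a CPM ratio of 1.12 (log2 0.16) against the remaining epithelium and 1.10 (log2 0.13) against Clu-low, so medians of gene lists are given below as log2 ratios relative to that gene.

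Antimicrobial and lectin genes formed the most abundant group among the 12 genes ranked first. Reg3b had 11485 CPM (11409 to 11562) in Clu-high epithelium and 2435 CPM (2419 to 2451) in the remaining epithelium, a ratio of 4.72 (4.67 to 4.76). Reg1 had 10039 CPM in Clu-high against 2014 CPM in remaining epithelium, a ratio of 4.98 (4.93 to 5.03). Reg3g had 3456 CPM in Clu-high against 1089 CPM in remaining epithelium, a ratio of 3.17 (3.12 to 3.22). Against Clu-low barcodes the ratios were 2.77 for Reg3b, 2.99 for Reg1 and 2.10 for Reg3g. Reg1 was not low in WT epithelium, at 4158 CPM, whereas Reg3b stood at 360 CPM and Reg3g at 315 CPM there. T cells of the polyp held 655 CPM of Reg3b, 506 CPM of Reg1 and 223 CPM of Reg3g.

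Other genes of secreted innate defence are described next, of which Ltf and Dmbt1 were picked by their rank. Ltf encodes lactoferrin, an iron-binding antimicrobial protein (chr9:111019271-111042767, plus strand), and had the largest ratio of the 12. It was 144 CPM (135 to 153) in Clu-high epithelium and 15.9 CPM (14.6 to 17.3) in the remaining epithelium, a ratio of 9.04 (8.16 to 10.0), and the ratio to Clu-low was 8.51. A Ltf UMI was found in 35.7% of Clu-high barcodes, 9.79% of the remaining epithelium and 0.42% of T cells. Its UMIs were thus seen in a minority of the Clu-high barcodes. These 3 sets had median depths of 9616.5, 5719 and 2124.5 UMIs, and the part of depth in the shares was not tested. Dmbt1, a scavenger receptor-like mucosal glycoprotein, was 4355 CPM in Clu-high against 1256 CPM in remaining epithelium, a ratio of 3.47, and 679 CPM in WT epithelium. Pigr, the receptor that carries IgA across the epithelium, was 1944 CPM in Clu-high against 742 CPM in remaining epithelium, a ratio of 2.62 (2.57 to 2.67), and 1357 CPM in WT. Of 8 mucosal defence genes measured, 4 were at least 2-fold higher (Reg1, Reg3b, Reg3g and Pigr), 1 was at most 0.5-fold (Reg4, with 0 UMIs in Clu-high epithelium), and the median was 0.96 above the median gene. Over all genes these shares were 2.75% higher and 8.35% lower. The Reg genes in this count were already among the 12 ranked first in these data and may share reads. The count is thus not independent of that ranking. Against Clu-low barcodes 5 of 7 were at least 2-fold higher (the same 4 and Duox2) and 1 was at most 0.5-fold (Chil4), beside 0.991% and 4.49% of all genes. In the 136 barcodes with at least 2% Clu, 3 of 8 were at least 2-fold higher and 2 at most 0.5-fold, beside 5.88% and 11.4% of all genes.

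**Figure D2:**
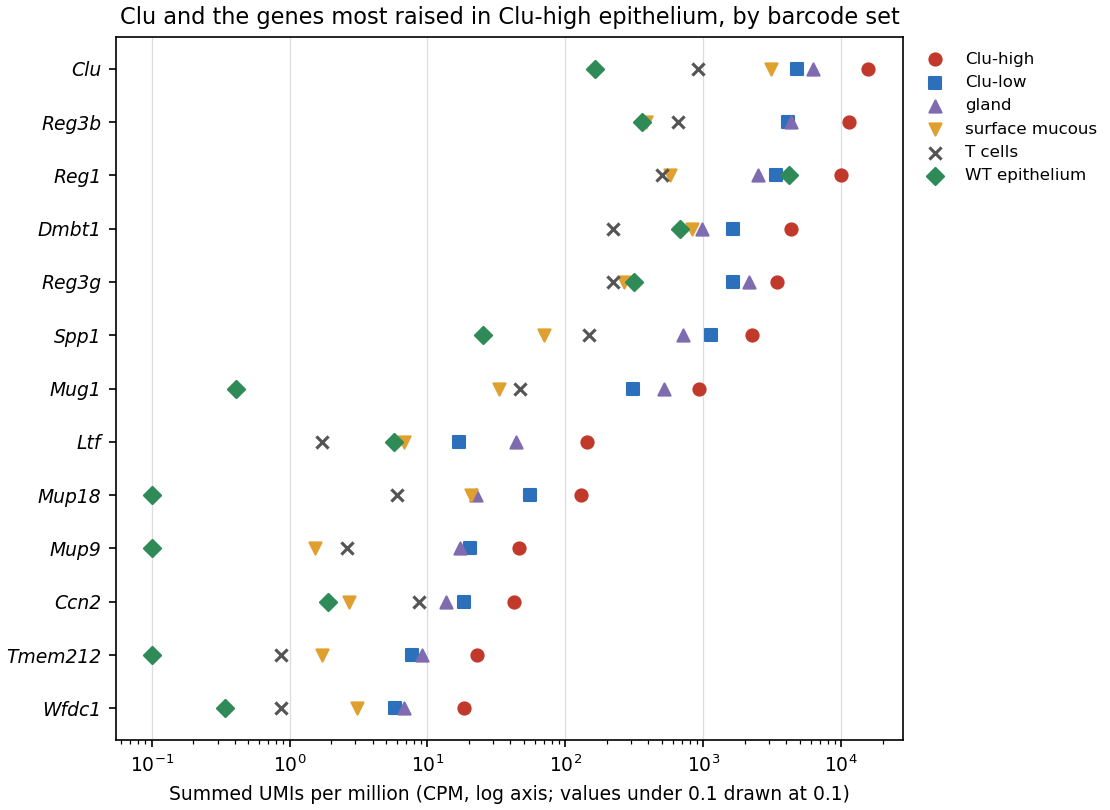
Summed CPM (x axis, log) of Clu and the 12 genes ranked first as higher in Clu-high epithelium, for Clu-high, Clu-low, gland and surface mucous epithelium and T cells of the polyp and for all WT epithelium. Clu-high is the rightmost point for each gene, with Clu-low or gland next in the polyp, and Reg1 is the gene where WT lies nearest, with 10039 CPM in Clu-high against 4158 CPM in WT epithelium.

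Of 9 acute-phase and complement genes measured, 5 were at least 2-fold higher and none was at most 0.5-fold, beside 2.75% and 8.35% of all genes, and the list median was 1.10 above the median gene. In the 136 barcodes with at least 2% Clu, 3 of 9 were at least 2-fold higher and 2 at most 0.5-fold. Over all genes these shares were 5.88% and 11.4% there. Against Clu-low barcodes 3 of 9 were at least 2-fold higher and none was at most 0.5-fold, beside 0.991% and 4.49% of all genes, and the median was 0.71 above the median gene, with Cfi (ratio 1.79) and Lrg1 (1.89) below that fold. Mug1, a broad protease inhibitor of the alpha-2-macroglobulin family that mouse liver secretes, was 939 CPM (917 to 961) in Clu-high against 214 CPM (209.5 to 219) in remaining epithelium, a ratio of 4.38 (4.24 to 4.53). It was 524 CPM in gland barcodes, 46.6 CPM in T cells and 0.406 CPM in WT epithelium. C4b, a complement component, was 393 CPM in Clu-high against 147 CPM in remaining epithelium (ratio 2.67). Cfi, the protease that inactivates C3b and C4b, was 391 CPM in Clu-high against 162 CPM in remaining epithelium (ratio 2.41). Lrg1, a secreted leucine-rich glycoprotein of the acute phase, was 880.3 CPM in Clu-high against 368 CPM in remaining epithelium (ratio 2.39). The fifth, Lcn2, which binds bacterial siderophores, was rare, at 8.91 CPM in Clu-high against 1.65 CPM in remaining epithelium. Its ratio of 5.39 (3.74 to 7.76) did not hold in the barcodes with at least 2% Clu, where it had no UMI. C3 was 7.58 CPM in Clu-high against 6.89 CPM in remaining epithelium and Serpina3n was 58.0 CPM in Clu-high against 51.8 CPM in remaining epithelium, ratios near that of the median gene.

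Of 4 abundant genes of this list, 2 were higher in gland barcodes than in Clu-high epithelium. Lrg1 was 1079.6 CPM in gland barcodes and C4b was 418 CPM, whereas Mug1 (524 CPM) and Cfi (319 CPM) were below the Clu-high level. In surface mucous barcodes the same genes were 103 CPM for Lrg1, 24.7 CPM for C4b, 33.2 CPM for Mug1 and 60.0 CPM for Cfi.

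The rest of the 12 genes were less abundant. Mup18 and Mup9, major urinary proteins that bind small lipophilic molecules, were 129.5 and 46.3 CPM in Clu-high epithelium, against 37.8 and 10.7 CPM in the remaining epithelium. Their ratios were 3.43 (3.16 to 3.72) and 4.31 (3.72 to 5.00), and neither had a UMI in WT epithelium. The Mup genes are near-identical copies on chromosome 4, so which copy the reads came from is uncertain. The same holds for Mug1 and its close relatives and for the Reg genes. Ccn2, a matricellular protein and YAP target, was 42.5 CPM in Clu-high against 10.6 CPM in remaining epithelium, a ratio of 4.02 (3.45 to 4.67), and 18.4 CPM in Clu-low barcodes. Wfdc1, a secreted protein with a whey acidic protein domain, was 18.3 CPM in Clu-high against 4.49 CPM in remaining epithelium. Tmem212, a transmembrane protein, was 23.0 CPM in Clu-high against 5.13 CPM in remaining epithelium. A UMI was seen in 37.9% of Clu-high barcodes for Mup18, 19.5% for Ccn2, 17.6% for Tmem212, 13.3% for Mup9 and 11.1% for Wfdc1. All 12 genes were also at least 2-fold higher than in Clu-low barcodes.

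Fetal-like regeneration genes, which reappear in injured mouse gut epithelium, did not share one direction. Of 25 measured, 6 were at least 2-fold higher, among them Spp1, Anxa8, Il33 and Cd44. Over all genes 2.75% were higher. Cd44, a hyaluronan receptor, was 400.0 CPM in Clu-high against 188 CPM in remaining epithelium (ratio 2.12). Il33, an alarmin, was 19.8 CPM in Clu-high against 8.13 CPM in remaining epithelium and 7.83 CPM in Clu-low barcodes. This level was uneven: Il33 was 96.0 CPM in 43 Clu-high barcodes (cluster 5 below) and 13.9 CPM in the other Clu-high barcodes. Anxa8 was rare, at 11.04 CPM in Clu-high against 4.49 CPM in remaining epithelium. 4 others were at most 0.5-fold, beside 8.35% of all genes: Ly6a, Anxa10, S100a6 and Anxa3. Ly6a, the gene of the antigen Sca-1 that marks regenerating mouse colon, was 4.25 CPM in Clu-high against 15.5 CPM in remaining epithelium, with T cells at 175 CPM. S100a6 was 2301 CPM in Clu-high against 4998 CPM in remaining epithelium, and 10239.5 CPM in surface mucous barcodes. The list median was 0.27 above the median gene. In the 136 barcodes with at least 2% Clu, 10 of 25 were at least 2-fold higher and 2 at most 0.5-fold, beside 5.88% and 11.4% of all genes. Against Clu-low barcodes 4 of 25 were at least 2-fold higher, Spp1 and Il33 among them, beside 0.991% of all genes. There Ly6a was at most 0.5-fold, beside 4.49% of all genes. Cd44 had a ratio of 1.77 and Anxa8 of 1.48, and Anxa10, Anxa3 and S100a6 had ratios of 0.787, 0.804 and 0.802.

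YAP/TEAD targets also split. Of 18 measured, Ccn2 and Amotl2 were at least 2-fold higher, and Ankrd1 and Axl were at most 0.5-fold at under 2 CPM in either set. Over all genes 2.75% were at least 2-fold higher and 8.35% at most 0.5-fold. The list median was 0.00 relative to the median gene. Amotl2, an angiomotin family member, was 40.7 CPM in Clu-high against 16.1 CPM in remaining epithelium (ratio 2.53). Ccn1, a secreted matricellular protein like Ccn2, was 518 CPM in Clu-high against 268 CPM in remaining epithelium (ratio 1.93). In the barcodes with at least 2% Clu, 7 of the 18 were at least 2-fold higher and 2 at most 0.5-fold, beside 5.88% and 11.4% of all genes. Against Clu-low barcodes 1 of 18 (Ccn2) was at least 2-fold higher, beside 0.991% of all genes, and Amotl2 had a ratio of 1.71. Another 5 were at most 0.5-fold (Ankrd1, Axl, Igfbp3, Ccdc80 and Rbms3), beside 4.49% of all genes.

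Of 10 metaplastic gland genes measured, 3 were at least 2-fold higher (Dmbt1, Cd44 and Wfdc2), beside 2.75% of all genes. None was at most 0.5-fold, beside 8.35% of all genes, and the median was 0.62 above the median gene. With the median gene set to 1, 1 of 10 was at least 2-fold higher, beside 1.61% of all genes. Wfdc2, a secreted whey acidic protein, was 689 CPM in Clu-high against 336 CPM in remaining epithelium (ratio 2.05). Gkn3, a gastrokine of gastric gland necks, was 23110.2 CPM in Clu-high against 14340.1 CPM in remaining epithelium (ratio 1.61), and 49318 CPM in gland barcodes. Aqp5, a water channel of pyloric glands, was 519 CPM in Clu-high against 299 CPM in remaining epithelium (ratio 1.74). Tff2, a secreted trefoil peptide, was 65554 CPM in Clu-high against 71207 CPM in remaining epithelium (ratio 0.921), with 206142 CPM in gland barcodes and 19407 CPM in T cells. Against Clu-low barcodes 1 of 10 (Dmbt1) was at least 2-fold higher and 1 was at most 0.5-fold (Glipr1), beside 0.991% and 4.49% of all genes. The ratios there were 1.86 for Wfdc2 and 1.24 for Gkn3.

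Stem cell and Wnt genes had 1 of 16 at least 2-fold higher (Prom1) and 1 at most 0.5-fold (Olfm4), near the shares over all genes (2.75% and 8.35%), with a median of 0.42 above the median gene. Against Clu-low barcodes 0 of 13 passed in either direction, which in a list this short is near the shares over all genes (0.991% higher and 4.49% lower). Prom1, a membrane protein of stem and progenitor cells, was 825 CPM in Clu-high against 358 CPM in remaining epithelium (ratio 2.30). Sox9, a transcription factor of crypt and duct progenitors, was 449 CPM in Clu-high against 230.1 CPM in remaining epithelium (ratio 1.95). Lgr5, the receptor that marks cycling stem cells, was 3.59 CPM in Clu-high against 3.83 CPM in remaining epithelium, and Olfm4, the crypt gene of the mouse small intestine, was 0.665 CPM in Clu-high against 3.39 CPM in remaining epithelium. Of 14 junction genes, 1 was at least 2-fold higher and 1 at most 0.5-fold, with a median of 0.06 above the median gene. The higher one, Cldn2, the pore-forming claudin of crypts, was 444 CPM in Clu-high against 173 CPM in remaining epithelium (ratio 2.57). The lower one, Cldn3, a barrier-forming claudin, was 8.64 CPM in Clu-high against 17.6 CPM in remaining epithelium. Among EGF family genes, Hbegf, a membrane-bound growth factor, was 857 CPM in Clu-high against 392.3 CPM in remaining epithelium (ratio 2.19), and Areg was 178 CPM in Clu-high against 184 CPM in remaining epithelium. Against Clu-low barcodes the ratios were 1.86 for Prom1, 1.93 for Cldn2 and 1.8 for Hbegf.

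**Figure D3:**
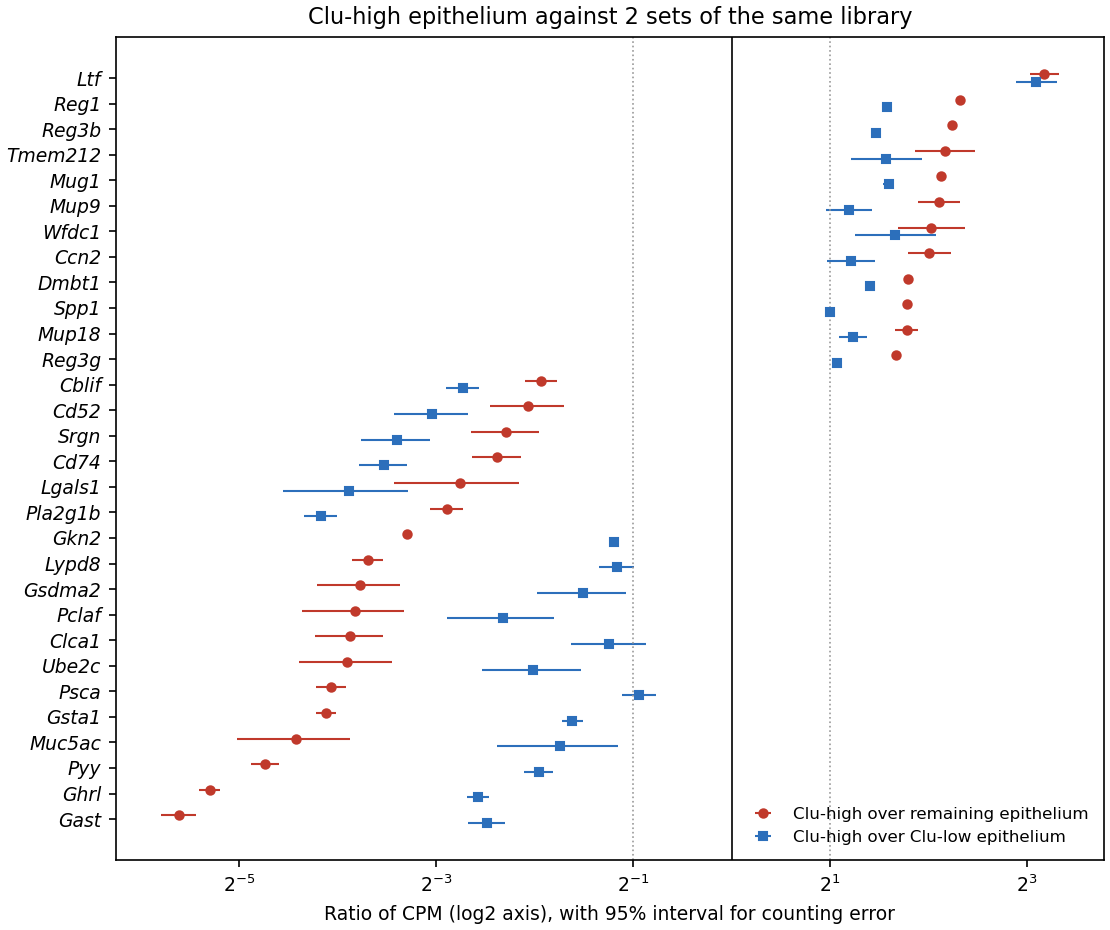
Ratio of CPM in Clu-high epithelium over the remaining epithelium (red) and over Clu-low epithelium (blue), log2 axis, for the genes ranked first in each direction, with bars for 95% counting intervals and dotted lines at 0.5 and 2. The 12 higher genes range from 3.17 to 9.04 over the remaining epithelium. The lower genes of endocrine, surface mucous and cycling cells lie nearer 1 against Clu-low, while Cblif, Cd52, Srgn, Cd74, Lgals1 and Pla2g1b lie further from 1.

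The genes ranked first as lower were mostly those of the classes that the rule limited. Gast and Ghrl, the hormones gastrin and ghrelin, were 33.9 and 101 CPM in Clu-high epithelium, against 1662 and 3998 CPM in the remaining epithelium. T cells held 101 CPM of Gast and 231 CPM of Ghrl, more than Clu-high epithelium. Pyy, another gut hormone, was 55.7 CPM in Clu-high against 1490.1 CPM in remaining epithelium, with 56.1 CPM in T cells. The surface mucous genes Gkn2, Psca and Muc5ac were 1706, 46.5 and 3.59 CPM in Clu-high epithelium, against 16772, 782 and 76.9 CPM in remaining epithelium, and all 3 were at or under the T-cell level of 2095, 88.9 and 8.63 CPM. Gsta1, a glutathione transferase, was 109 CPM in Clu-high against 1899.6 CPM in remaining epithelium and 249 CPM in T cells. Lypd8, Clca1, Gsdma2, Ube2c and Pclaf completed the 12, all under 50 CPM in Clu-high epithelium and under the T-cell level. The cycling markers Mki67, Top2a, Birc5 and Cdk1 summed to 90.6 CPM in T cells and 14.1 CPM in Clu-high epithelium. T cells are therefore no gauge of free RNA for the cycling genes Ube2c and Pclaf. For the other genes, the Clu-high values were at or under the T-cell level. That level is a rough gauge of free RNA, because T-cell barcodes were shallower. Their median was 2124.5 UMIs, against 9616.5 in Clu-high barcodes, and the same free RNA is then a larger share. Whether these values hold some expression cannot be told.

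Against Clu-low barcodes the genes ranked first as lower were others. Pla2g1b, a pancreatic secreted phospholipase, was 40.3 CPM in Clu-high against 726 CPM in Clu-low barcodes (ratio 0.0555), and Cblif, gastric intrinsic factor, was 44.3 CPM in Clu-high against 294 CPM in Clu-low barcodes (ratio 0.150). Cd74, the MHC class II invariant chain, was 19.3 CPM in Clu-high against 223 CPM in Clu-low barcodes (ratio 0.0863). Lgals1, Srgn and Cd52, which leukocytes express, were 3.06, 9.71 and 8.51 CPM in Clu-high against 45.4, 103 and 70.2 CPM in Clu-low barcodes, with T cells at 788, 2346 and 1536 CPM. Macrophage markers summed to 4.92 CPM in Clu-high and 48.7 CPM in Clu-low barcodes, and 4 fibroblast markers to 13.6 CPM in Clu-high and 185 CPM in Clu-low barcodes. Their part in the result was not tested.

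The rule left out barcodes with Mki67 plus Top2a and kept 269 such cycling barcodes in the remaining epithelium, so the values of proliferation genes are a description of what it chose. Of 15 measured, none was at least 2-fold higher and 10 were at most 0.5-fold, beside 2.75% and 8.35% of all genes. Against Clu-low barcodes 5 of 14 were at most 0.5-fold, beside 4.49% of all genes, and there the limit of 2 UMIs is stricter for the deeper Clu-high barcodes. Birc5, a spindle checkpoint protein, was 5.85 CPM in Clu-high against 54.6 CPM in remaining epithelium, while Pcna, the replication clamp, was 69.7 CPM in Clu-high against 73.4 CPM in remaining epithelium.

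Of 6 keratins measured, none was at least 2-fold higher and 2 were at most 0.5-fold, beside 2.75% and 8.35% of all genes. Krt19, of simple and ductal epithelium, was 415 CPM in Clu-high against 1089.6 CPM in remaining epithelium (ratio 0.381) and 558 CPM in Clu-low barcodes. Krt20, of surface cells, was 5.19 CPM in Clu-high against 49.5 CPM in remaining epithelium, with 10.4 CPM in T cells. Against Clu-low barcodes no keratin was past 2-fold, beside 0.991% of all genes higher and 4.49% lower. Krt8 was 1519 CPM in Clu-high against 2142 CPM in remaining epithelium and Krt18 was 1404 CPM in Clu-high against 1190 CPM in remaining epithelium. By summed level 5 of 7 chief and parietal cell genes were at most 0.5-fold, beside 8.35% of all genes. As means over barcodes 5 of 7 were too, beside 9.8% of all genes. Pgc, the pepsinogen C gene, was 917 CPM in Clu-high against 2456 CPM in remaining epithelium and 4226 CPM in Clu-low barcodes. Per barcode, Clu-high had the highest median and detection of the 3 sets. Its barcodes were also the deepest, with a median of 9616.5 UMIs, against 2708 in Clu-low and 5719 in remaining barcodes. The part of depth in this was not tested. The markers Pgc, Cblif, Atp4a and Atp4b together had a median of 584 CPM in Clu-high, 420 CPM in Clu-low and 277 CPM in remaining barcodes, and a UMI in 87.2% of Clu-high, 70.1% of Clu-low and 72.0% of remaining barcodes, so the sums of the other sets rest on barcodes with very high values. MHC class II genes had 4 of 6 at most 0.5-fold, beside 8.35% of all genes, and 5 of 6 against Clu-low barcodes, beside 4.49%.

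Stk11, the Lkb1 gene itself, was 46.5 CPM (41.8 to 51.7) in Clu-high epithelium and 36.9 CPM (35.0 to 39.0) in the remaining epithelium, a ratio of 1.26 (1.12 to 1.42). The median gene had a ratio of 1.12 in the same comparison, at the lower end of that interval. Stk11 was 28.6 CPM in WT epithelium, and a 3′ tag does not tell a floxed allele from a deleted one. Of 18 genes of the LKB1 complex and its kinases, none was past 2-fold in either direction, and the same held for 14 IL-6 family and STAT3 genes. Over all genes 2.75% were at least 2-fold higher and 8.35% at most 0.5-fold, so none in lists this short is near those shares. Stat3 was 92.4 CPM in Clu-high against 66.3 CPM in remaining epithelium and its target Socs3 was 103 CPM in Clu-high against 70.9 CPM in remaining epithelium. Among 18 regional transcription factors, none was at least 2-fold higher and Cdx2, which specifies intestine, was the lower one, at 1.06 CPM in Clu-high against 2.67 CPM in remaining epithelium and 53.8 CPM in WT. Sox2, a transcription factor of stomach, was 30.9 CPM in Clu-high against 19.3 CPM in remaining epithelium.

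Levels were followed over 8 bins of the Clu share, from under 0.25% (702 barcodes) to 3% or more (30 barcodes), among barcodes that met all other conditions. Reg1 stood at 552, 2067, 4241, 7079, 9605, 10749.8, 10498 and 9813 CPM from the lowest to the highest bin, so that it levelled off above the threshold. Mug1 stood at 48.1, 159.9, 449.7, 632, 901, 1021, 778 and 2008 CPM. Ltf stood at 4.79, 8.12, 15.7, 41.0, 87.1, 146, 398 and 90.02 CPM, with its peak in the bin from 2% to 3%. Tff2 went the other way above 0.75%, from 79090.2 CPM at 0.5% to 0.75% down to 45316 CPM in the highest bin. Depth and RNA quality moved with Clu: median UMIs per barcode were 2696 in the lowest bin, 9903.5 at 1% to 1.5% and 2697.5 in the highest, where the median mitochondrial share was 14.5%. Their part in the trend was not tested.

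**Figure D4:**
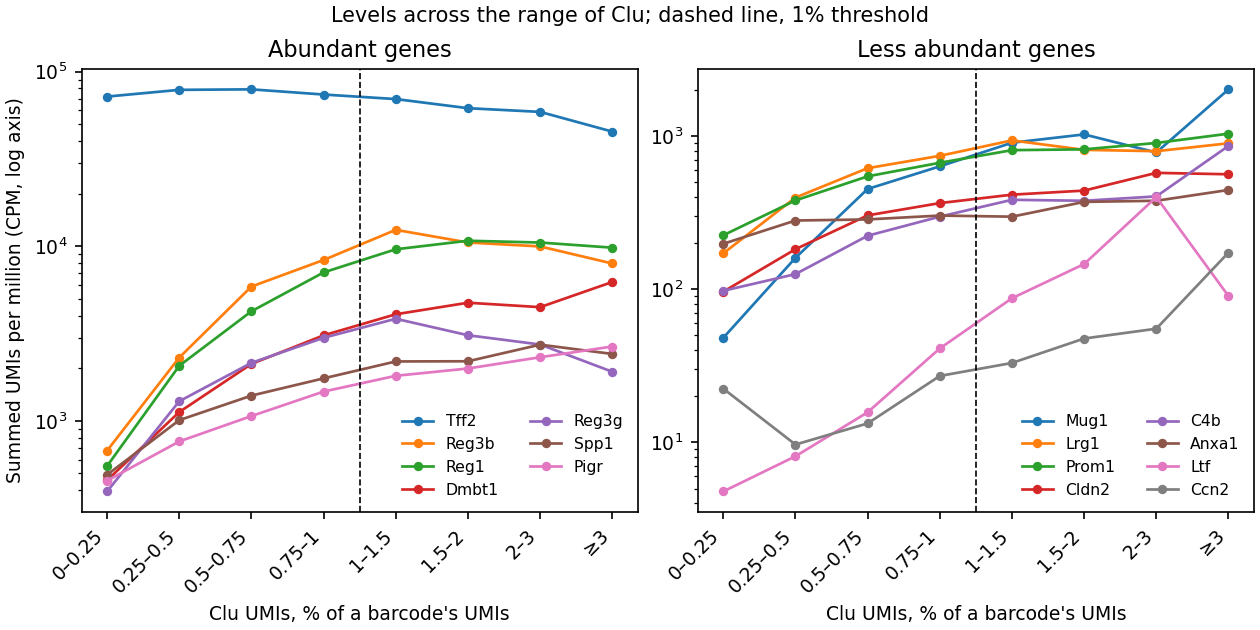
Summed CPM (y axis, log) of selected genes in 8 bins of the Clu share per barcode (x axis, %), for polyp barcodes that met every condition except that on Clu, with the 1% threshold dashed. Reg1 climbs up to the threshold and levels off, Reg3b peaks between 1% and 1.5% and then declines, Ltf climbs to 398 CPM at 2% to 3%, and Tff2 declines above 0.75%.

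The Clu-high barcodes varied widely among themselves. Reg3b ranged from 0% to 8.52% of a barcode's UMIs, with a median of 0.703%, and Reg1 from 0% to 4.29%, with a median of 0.661%. Across the 495 Clu-high barcodes with at least 5000 UMIs, which share 1 library, Reg3b and Reg3g shares had a Spearman rho of 0.77, Reg1 and Reg3b 0.70 and Reg1 and Reg3g 0.58. Lrg1 and Reg3g had 0.53 and Dmbt1 and Reg1 0.51. Clu itself had a rho of 0.04 with Reg1 within this range. Krt19 had negative values with Mug1 (-0.35), C4b (-0.33) and Lrg1 (-0.32). These are descriptions over barcodes of unequal depth, and genes that share reads can gain from it.

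Clustering the 774 barcodes without the genes of the rule gave 6 clusters. Cluster 2 (211 barcodes) was led by Irs2, Efnb2 and Serpina3n and held the most Spp1, 3449 CPM, with the immediate-early and stress genes Nr4a1 and Dnajb1 also leading. Cluster 4 (140) was led by Sptssb, Syt16 and Ly6d and held 1337 CPM of Spp1 and 223 CPM of Ltf. Cluster 6 (139) was led by the chitinase-like gene Chil4, at 1477 CPM against 346 CPM in the other clusters (1818 CPM in cluster 3), and held the most Reg3b, 16701 CPM, with 115 CPM of Anxa1, the lowest of the 6. Cluster 5 (43) was led by Uts2, a vasoactive peptide, at 936 CPM against 53.01 CPM in the other clusters, followed by Il33, Prap1 and Mup9. Clusters 1 and 3 stood apart by quality: cluster 1 (138) had a median of 1415.5 UMIs and was led by Ghrl, and cluster 3 (103) had 16.9% mitochondrial UMIs, was led by Lars2 and had the highest median Clu share, 1.89%. Mug1 was highest in cluster 3, at 1986 CPM, so part of its spread lies in barcodes of high mitochondrial share.

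**Figure D5:**
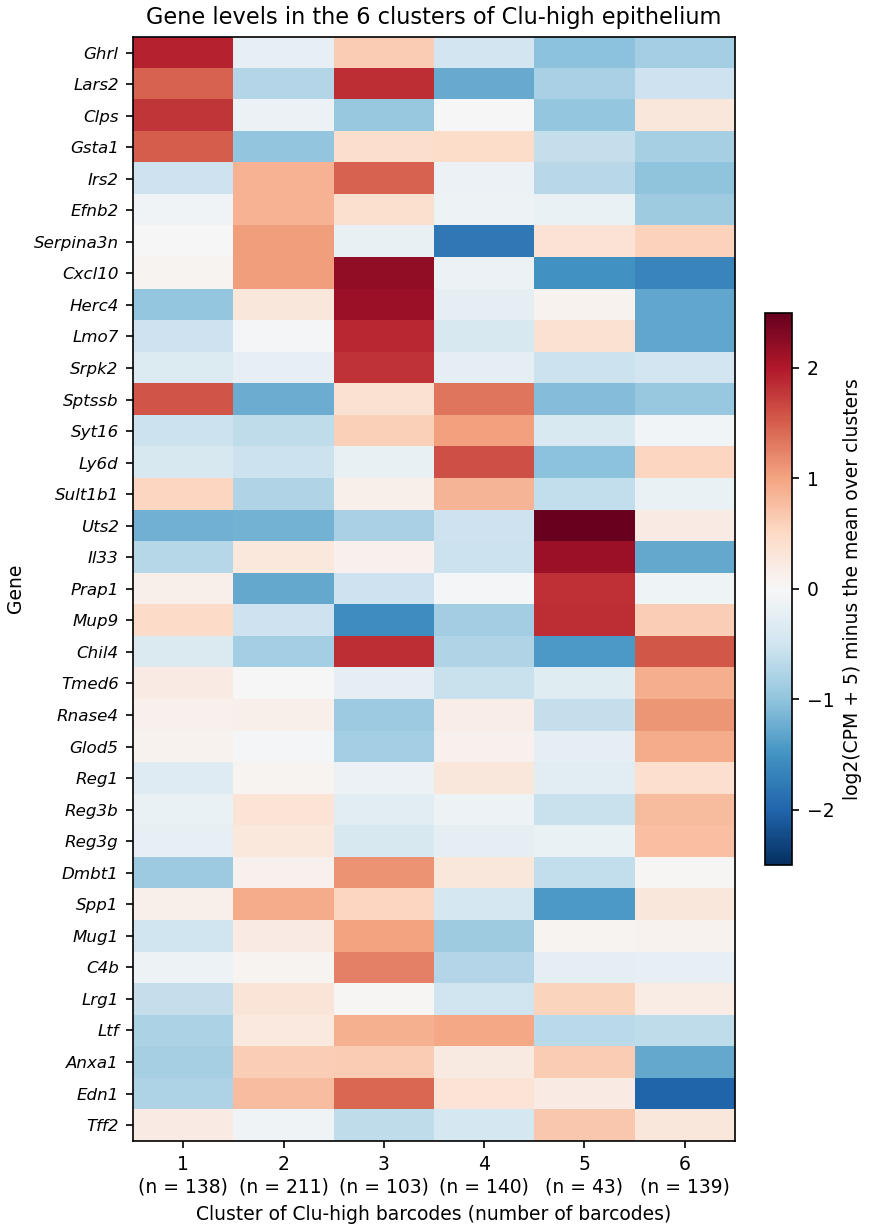
Heat map of genes that led a cluster and of genes named above (rows) in the 6 clusters of Clu-high barcodes (columns, with their number), as log2(CPM + 5) minus the mean over clusters. Cluster 5 stands out for Uts2, Il33, Prap1 and Mup9, clusters 3 and 6 for Chil4, cluster 6 also for low Edn1 and Anxa1, and clusters 1 and 3 share Lars2.

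When all 4399 epithelial barcodes were clustered without the genes of the rule, no cluster of the 21 consisted of Clu-high barcodes alone. The highest share was 53.4% (95 of 178) in cluster 11, led by Mup9, Mup10 and Mup18. Cluster 10, led by Thbs1, Trf, Edn1 and Ltf, held the largest number, 265 of 542 (48.9%), and cluster 5, led by Fam13a and Reg1, held 157 of 336 (46.7%). Clusters 15 and 16, led by surface mucous genes such as Psca and by Vipr1, held none. Clusters led by macrophage, plasma cell, T-cell and fibroblast genes held 4, 1, 3 and 6 Clu-high barcodes.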

How the data were processed

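Both 10x 3′ v3 libraries were deposited as whole-number UMI counts per gene and barcode, not normalized. The submitters' processing notes name Cell Ranger 3.0.0 and mm10, while the deposited matrix headers name Cell Ranger 5.0.0; the annotation release is not given in the sources used here. Per the labels' protocols, tissue was digested with 0.2% collagenase for 40 min at 37 °C. The polyp library held 63566462 UMIs in 14327 barcodes, of which 8460 passed the limits on UMIs, genes and mitochondrial share; WT held 39222238 UMIs in 9950 barcodes, of which 3252 passed.

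UMIs were summed per set and divided by the set's total (CPM), with exact Poisson intervals, exact conditional binomial intervals for ratios, and Clopper-Pearson intervals for shares. A gene counted as higher or lower at a CPM ratio of 2 or 0.5 and at least 50 UMIs over both sets. No count model was fitted, because each genotype is 1 library. T cells were barcodes with at least 2 UMIs of T-cell markers. Named genes had a UMI in at least 10% of the barcodes of the higher set, were not mitochondrial, ribosomal, haemoglobin, immunoglobulin, predicted, sex-linked or part of the rule, and were ranked by the interval end nearest 1 (12 each way against the remaining epithelium, 6 each way against Clu-low). From each gene list, the 4 with most UMIs and those past 2-fold could also be named. A few genes counted in these lists are not reported here by name. The members and the lists were chosen with earlier results of these data known. Clustering used scanpy 1.11.5 (2000 variable genes, 20 components, Leiden). Gene positions are from GENCODE on mm10. The interval calculation was tested on simulated data. Alternatives changed the Clu, UMI, mitochondrial and Epcam limits, the reference, the scaling and the filter on low counts, thinned barcodes to 1000 UMIs, and removed high doublet scores; the limit of 5000 UMIs and the subtraction of the T-cell level were added after seeing the data.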

Additional observations from a re-analysis of the deposited data

How the results depend on the processing

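Of the genes 2-fold higher in Clu-high epithelium (330) and 0.5-fold or lower (1002), the counts became 106 and 480 with Clu-low as the reference and 137 and 312 after thinning to 1000 UMIs. Setting the median gene to 1 left 193 higher. A 2% Clu limit gave 705 higher. With at least 20 UMIs per gene 1648 were lower, and without a filter 1357 were higher and 5503 lower, where counts of 1 to a few UMIs decide. The Clu-high share of polyp epithelium (17.6%) was 35.9% at 0.5% Clu, 3.09% at 2% Clu, 19.0% with at least 1000 UMIs, 20.6% with at least 5000 UMIs, 21.1% with 2 Epcam UMIs and 15.03% with no mitochondrial limit. WT then held 7 such barcodes at 0.5% Clu, and 0 at 2% Clu or with at most 10% mitochondrial UMIs, in place of 1. Ratios turned round in named genes as follows: Ankrd1 (1.85 at 0.5% Clu), and at 2% Clu Axl (1.08), Cldn3 (1.45), Cxcl2 (1.85) and Lcn2 (no UMI, ratio 0). Over all genes of the lists and rankings, 8 turned round at 2% Clu, 4 with 2 Epcam UMIs, 2 against Clu-low, and 1 each at 0.5% Clu and at 5000 UMIs. The erythroid list had a log2 median of 0.82 at 2% Clu in place of -1.15. The cause was not tested. Of 156 genes of the lists and rankings past 2-fold, 38 (of 155) were not past it against Clu-low, 29 at 2% Clu, 23 after thinning, 23 as means over barcodes, 22 with 2 Epcam UMIs and 19 with at least 5000 UMIs. No paired analysis was possible because each genotype is 1 library. The limits are that 3 mice are pooled, that Clu-high barcodes are deeper than the remaining epithelium, and that free RNA sets a floor. Genes at or under their T-cell level could not be told from free RNA here. T-cell barcodes were shallower than Clu-high barcodes, so this floor is only rough.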

Other observations

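None of 15 immediate-early genes was past 2-fold in either direction, beside 2.75% higher and 8.35% lower over all genes. Their median was 0.37 (log2) above the median gene against the remaining epithelium and 0.17 above it against Clu-low barcodes. Fos, a transcription factor induced within minutes of many stimuli, was 2029 CPM in Clu-high epithelium and 1395 CPM in the remaining epithelium, and Jun was 1448 CPM in Clu-high against 1009 CPM in remaining epithelium. T cells of the polyp held 939 CPM of Fos and 817 CPM of Jun. Klf4, a factor of differentiating epithelium, was 936 CPM in Clu-high against 623 CPM in remaining epithelium.

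Signals to immune cells were mixed. Of 14 chemokines and alarmins, 3 were at least 2-fold higher and 3 at most 0.5-fold, beside 2.75% and 8.35% of all genes. Against Clu-low barcodes 1 of 12 was higher (Il33) and 1 lower (Cxcl2), beside 0.991% and 4.49% of all genes. Il33 was 96.0 CPM in the 43 barcodes of cluster 5 and 13.9 CPM in the other Clu-high barcodes, against 7.83 CPM in Clu-low barcodes. The ratios to Clu-low were 1.53 for Cxcl17 and 1.76 for Cxcl16. With the median gene set to 1 against the remaining epithelium, 1 of 14 was higher, beside 1.61% of all genes. Cxcl17, a mucosal chemokine-like protein, was 322 CPM in Clu-high against 159 CPM in remaining epithelium and 0.676 CPM in WT epithelium, and Cxcl16, a membrane-bound chemokine, was 58.2 CPM in Clu-high against 27.8 CPM in remaining epithelium. Il18, an epithelial cytokine, was 50.8 CPM in Clu-high against 131 CPM in remaining epithelium. Of 13 interferon response genes, Ifit1 was the one at least 2-fold higher, at 27.8 CPM in Clu-high against 13.2 CPM in remaining epithelium, with 744 CPM in T cells. Ptger4, a receptor for prostaglandin E2, was 109.8 CPM in Clu-high against 54.7 CPM in remaining epithelium, a ratio of 2.01, and the ratio to Clu-low was 1.64.

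None of 20 oxidative phosphorylation genes and none of 15 glycolysis genes was past 2-fold, beside 2.75% higher and 8.35% lower over all genes. Their medians were -0.30 and -0.27 relative to the median gene. Erythroid markers summed to 1202 CPM in Clu-high epithelium, 2633 CPM in the remaining epithelium and 2016 CPM in T cells, which do not make haemoglobin.

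Edn1, the vasoconstrictor peptide endothelin-1, stood outside the lists and was picked after its values were seen, because it led a cluster of the epithelium. It was 267 CPM in Clu-high epithelium and 92.7 CPM in the remaining epithelium, a ratio of 2.88 (2.72 to 3.04), with 15.5 CPM in T cells and 76.6 CPM in WT epithelium. Within Clu-high epithelium it was 50.5 CPM in the cluster led by Chil4 and 601 CPM in the cluster with the highest mitochondrial share. Its shares had a Spearman rho of 0.31 with those of Anxa1 over the 495 barcodes with at least 5000 UMIs. Thbs1, a matricellular protein picked in the same way, was 245 CPM in Clu-high against 106 CPM in remaining epithelium, a ratio of 2.32.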
